A study of Mus musculus with 9 samples.

Results

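Histone lysines are acetylated, and can also be lactylated, by writer enzymes and cleared by eraser enzymes. RNA of 10 of these enzymes was followed here in BV2 cells, an immortalized mouse microglial line, during oxygen-glucose deprivation (OGD) and inhibition of the writer p300. The 10 genes were taken by name from a table of 54532 genes: the writers Ep300, Crebbp, Kat2a, Kat2b, Kat5 and Kat8, and the class I erasers Hdac1, Hdac2, Hdac3 and Hdac8. All 10 were found in the table, and all 10 passed the filter on low values (0.2 FPKM on average over the libraries; FPKM stands for fragments per kilobase of gene, scaled to sequencing depth) that left 16123 genes for testing. The control cells (Ctrl, 3 libraries) were kept in complete medium with 10% serum. The OGD cells (3 libraries) were kept in low-glucose medium with 4% serum at 4% oxygen for 24 h, and the OGD_A_485 cells (3 libraries, here OGD + A-485) received 50 µM A-485, an inhibitor of the catalytic domain of p300 and of its paralogue CBP, when OGD began. These conditions are those the study's methods give for its OGD experiments, and they were taken to hold for the sequenced cells. No group received A-485 without OGD, and OGD changed glucose, serum and oxygen together, so these cannot be told apart.

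A writer moves an acyl group from a coenzyme A donor to a lysine of a histone tail, and an eraser hydrolyses it. p300 (Ep300) and CBP (Crebbp) are large coactivators that sit at enhancers and promoters, KAT2A and KAT2B belong to the GNAT family, and KAT5 and KAT8 to the MYST family. p300 is also known as a writer of histone lactylation, and the class I deacetylases, mainly HDAC1 to HDAC3, have been described as erasers of both marks. A-485 acts on the p300 and CBP proteins, so the libraries measure whether RNA of the inhibited enzymes, their relatives and the erasers differed between groups. They do not measure enzyme activity, acetylation or lactylation.

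The libraries held 12593250 to 16091038 reads on genes, and mitochondrial genes took 1.82% to 2.2% of the reads of Ctrl libraries, 1.14% to 1.28% with OGD and 1.66% to 2.01% with A-485. Of 10 microglia and macrophage markers, 9 averaged 1 FPKM or more, with Cd68 highest at 343 FPKM and P2ry12, a marker of resting microglia in tissue, near 0. The summed FPKM of these markers ranged over 389 to 399 in Ctrl, while OGD libraries held 445 to 474 and A-485 libraries 825 to 865, and its part in the results below was not tested. Markers of astrocytes, neurons, oligodendrocytes, endothelium and fibroblasts were at or near 0, with no marker at a mean of 1 FPKM, and Aqp4, Mog, Mag, Cldn5 and Dcn were at 0 in every library. In these bulk samples a lower RNA level per cell and fewer cells with the RNA cannot be told apart.

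In Ctrl cells the order of the mean levels per gene length was Hdac1 (44.4 FPKM), Kat2a (32.0), Hdac2 (22.5), Hdac3 (20.4), Ep300 (14.1), Kat5 (11.8), Kat2b (8.29), Kat8 (5.46), Crebbp (5.45) and Hdac8 (2.49). Neighbours in this order had no overlapping libraries, except Kat8 and Crebbp. Hdac1 RNA was thus 17.9 times as high as Hdac8 RNA on the FPKM scale. In OGD the libraries of Hdac3 and Hdac2 overlapped, as did those of Crebbp and Kat8. In OGD + A-485 Hdac3, at 13.2 FPKM, was below Hdac2, as in Ctrl. Its mean was also below that of Ep300 (14.6 FPKM), and the libraries of these genes overlapped. The replicate spread was small: the SD was 0.823% to 13.9% of the mean over the 30 combinations of gene and group.

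Changes were tested with limma on log2(FPKM + 0.1), and log2 fold changes below are on that scale. The study's own thresholds (p below 0.01 and a log2 fold change beyond 0.5 in either direction) and an adjusted p below 0.05 were both used, the latter adjusted over all 16123 genes. "Rose" and "fell" below mean an adjusted p below 0.05. With OGD, 0 of the 10 enzymes passed the study thresholds, against 21.0% of all genes tested (11.2% higher and 9.81% lower). By the adjusted p, Kat2a, Kat2b, Kat5 and Hdac2 fell and 0 rose. These 4 of 10 compare with 45.3% of all genes, 22.8% of them lower. With A-485 added to OGD, only Hdac3 among the 10 passed the study thresholds (lower), against 25.7% of all genes (12.2% higher and 13.4% lower). By the adjusted p, 7 enzymes rose (Ep300, Crebbp, Kat2a, Kat2b, Hdac1, Hdac2 and Hdac8) and Hdac3 fell, a total of 8 of 10 against 49.8% of all genes, 25.1% higher and 24.7% lower. That count depended on single libraries: it was 5 without OGD replicate 1, 4 without OGD replicate 3, and 5 without OGD + A-485 replicate 2 or replicate 3. Crebbp, Kat2a, Hdac2 and Hdac3 kept the call whichever of the 9 libraries was left out, and the other 4 did not. The count of 4 in OGD against Ctrl became 2, Kat2a and Kat2b, without Ctrl replicate 1. Both comparisons use the same OGD libraries, so a fall with OGD and a rise with A-485 are not independent.

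The changes were small beside those of all genes tested, which include genes averaging as little as 0.2 FPKM. The 10 enzymes averaged 2.77 to 45.1 FPKM, and genes of similar level were not compared separately. The median size of the log2 fold change over the 10 enzymes was 0.17 with OGD, 0.25 with A-485 and 0.14 for OGD + A-485 against Ctrl, while over all genes tested it was 0.36, 0.39 and 0.49. The median signed change of the 10 enzymes was -0.17 with OGD and 0.19 with A-485, where all genes had 0.014 and 0.012. With OGD, the libraries of 6 of the 10 enzymes were all lower than in Ctrl and 0 all higher, where 55.4% of all genes tested did not overlap (27.5% lower and 28.0% higher). With A-485, 7 enzymes were higher in every library and 1 lower, where 56.8% of all genes did not overlap (28.5% higher and 28.3% lower).

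**Figure D1:**
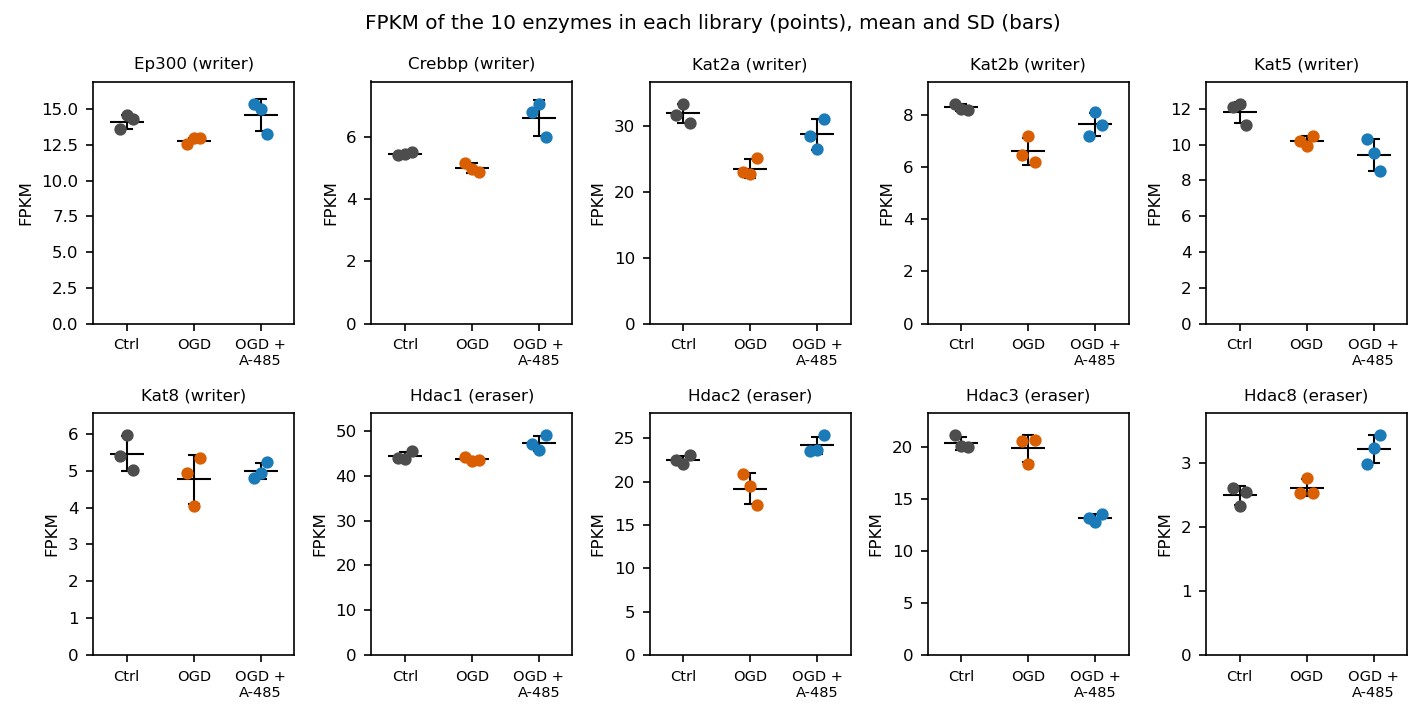
FPKM (y axis, from 0) of each of the 10 enzymes in Ctrl, OGD and OGD + A-485. Points are the 3 libraries of a group, and bars give the mean and the SD. Hdac3 dropped from 18.4 to 20.7 FPKM in the OGD libraries to 12.8 to 13.6 with A-485, while Hdac1 stayed between 43.3 and 49.1 FPKM in all 9 libraries.

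**Figure D2:**
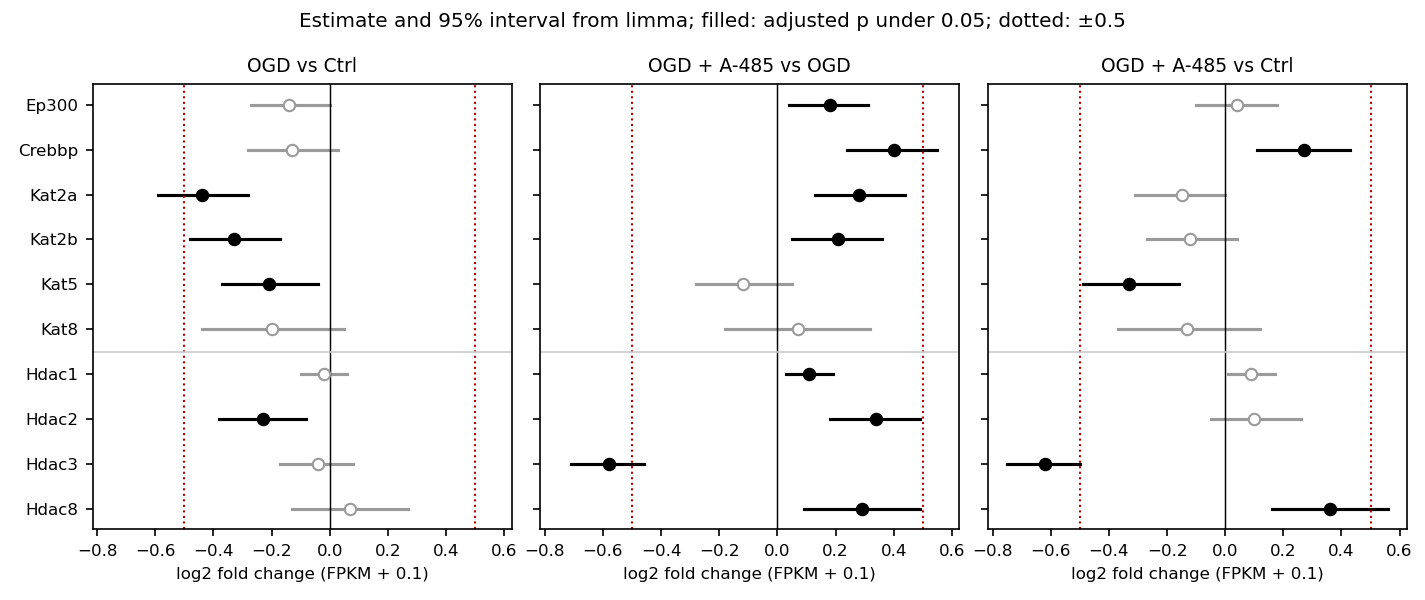
Log2 fold change (x axis) of each enzyme in the 3 comparisons, as the limma estimate with its 95% interval. Filled points have an adjusted p below 0.05 and dotted lines mark the study's threshold of 0.5. Kat2a has the lowest estimate with OGD (-0.44), and Hdac3 is the only enzyme beyond a dotted line (-0.58 with A-485 against OGD and -0.62 against Ctrl).

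Ep300 encodes p300, the enzyme that A-485 inhibits (ENSMUSG00000055024, chr15:81585351-81652077, plus strand, GRCm38). It was at 13.6, 14.6 and 14.3 FPKM in the Ctrl libraries, 12.6, 13.0 and 13.0 in OGD, and 15.4, 15 and 13.3 in OGD + A-485, from 2293 to 3373 reads per library. All OGD libraries were below all libraries of the other groups, although Ctrl and OGD + A-485 overlapped. The OGD level did not pass the test against Ctrl (log2 fold change -0.14, 95% interval -0.27 to 0.0, adjusted p = 0.0991). It passed in 3 of 12 other fits: limma-voom on recovered reads (adjusted p = 0.0459), library totals (-0.19, adjusted p = 0.0394) and only these groups in the fit (adjusted p = 0.0343). It also passed in 1 of 9 fits that left out a library (adjusted p = 0.032 without OGD + A-485 replicate 3, up to 0.24 otherwise). Relative to the 50 nearest expressed genes, the OGD change was -0.04 (adjusted p = 0.652). With A-485 Ep300 rose by 12.9% over OGD (log2 fold change 0.18, interval 0.04 to 0.31, adjusted p = 0.0377). This call was lost when any of 7 of the 9 libraries was left out, with adjusted p up to 0.121, and was kept without Ctrl replicate 1 or OGD + A-485 replicate 3. It was also lost with library totals (0.11, adjusted p = 0.181), relative to the 50 nearest expressed genes (0.02, adjusted p = 0.797), and by quantile normalization, with no filter, with only the groups compared or with no trend in the prior variance (adjusted p 0.0558 to 0.0714). Against Ctrl, OGD + A-485 differed by 0.04 (interval -0.1 to 0.18, adjusted p = 0.605).

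Crebbp encodes CBP, the paralogue of p300 that A-485 also inhibits (ENSMUSG00000022521, chr16:4081328-4213997, minus strand). Its values were 5.41, 5.44 and 5.5 FPKM in Ctrl, 5.16, 4.95 and 4.86 in OGD, and 6.79, 7.06 and 5.97 in OGD + A-485, from 872 to 1509 reads. The 3 groups did not overlap, with OGD lowest and OGD + A-485 highest. The OGD change of -0.13 did not pass the test (interval -0.28 to 0.03, adjusted p = 0.177). With A-485 Crebbp rose 1.31 times over OGD (log2 fold change 0.4, SE 0.07, adjusted p = 0.00132), and it was also above Ctrl (0.27, adjusted p = 0.00885). The rise over Ctrl failed the test when libraries were scaled to their read totals (0.16, adjusted p = 0.106) and relative to the 50 nearest expressed genes (0.06, adjusted p = 0.471).

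The ratio of Ep300 to Crebbp RNA within a library was 2.51 to 2.68 in Ctrl, 2.45 to 2.67 with OGD and 2.12 to 2.28 once A-485 was added. Each A-485 library was therefore lower than every other library, by 0.23 ± 0.05 (SE) on the log2 scale against OGD. An exact two-sided permutation test over 3 against 3 libraries cannot go below p = 0.1, the value found here (adjusted p = 0.25 over 15 tests). Over the 9 libraries, the 3 genes whose log2 level followed that of Ep300 most closely among 11897 genes averaging 1 FPKM or more were Farp2 (Pearson r 0.929), Fiz1 (0.928) and Snrk (0.927). They were found by search over 9 libraries of 3 groups, so the values are a description. For Crebbp the same value was 0.798, and for Hdac3 it was -0.536.

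Kat2a encodes GCN5, the acetyltransferase of the SAGA and ATAC coactivator complexes (ENSMUSG00000020918, chr11:100704746-100712465, minus strand). It was the most abundant writer, at 31.8, 33.5 and 30.6 FPKM in Ctrl, 23.0, 22.7 and 25.2 in OGD, and 28.6, 26.6 and 31.2 in OGD + A-485, from 1019 to 1727 reads. The OGD libraries lay below all others. Kat2a fell by 26.1% with OGD (log2 fold change -0.44, SE 0.07, adjusted p = 0.000749), short of the 0.5 threshold, and 58.3% of all genes tested changed by less. With A-485 it rose 1.22 times over OGD (0.28, adjusted p = 0.00713), and OGD + A-485 differed from Ctrl by -0.15 (interval -0.31 to 0.0, adjusted p = 0.0833). The last value passed the test under other scalings (-0.27, adjusted p = 0.00476, with library totals; -0.21, adjusted p = 0.0129, with quantile normalization).

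Kat2b encodes PCAF, the paralogue of GCN5 that can take its place in these complexes (ENSMUSG00000000708, chr17:53566861-53672720, plus strand). The values were 8.44, 8.22 and 8.2 FPKM in Ctrl, 6.46, 7.18 and 6.18 in OGD, and 7.2, 8.1 and 7.61 in OGD + A-485, from 400 to 646 reads. Ctrl was above both other groups in every library. Kat2b fell by 20.2% with OGD (-0.33, SE 0.07, adjusted p = 0.00414). It rose with A-485 by 0.21 (adjusted p = 0.0317), a call that was lost without OGD replicate 1 or 3 or OGD + A-485 replicate 2 or 3 (adjusted p 0.0711 to 0.104), with library totals (0.14, adjusted p = 0.141) and with only the groups compared in the fit (adjusted p = 0.0731). The 50 nearest expressed genes had a median change of -0.37 with A-485, and taken relative to them the change of Kat2b was 0.58, past the study thresholds. The ratio of Kat2a to Kat2b was 3.16 to 4.1 over the 9 libraries, and the groups overlapped in every comparison.

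Kat5 encodes TIP60, the acetyltransferase of the NuA4 complex (ENSMUSG00000024926, chr19:5603017-5610094, minus strand). It was at 12.1, 12.3 and 11.1 FPKM in Ctrl, 10.2, 9.95 and 10.5 in OGD, and 10.3, 9.52 and 8.5 in OGD + A-485, from 246 to 362 reads. Ctrl was the highest group in every library, and OGD and OGD + A-485 overlapped. Kat5 fell with OGD by 0.21 (adjusted p = 0.0422), but it passed in only 3 of the 9 fits that left out a library: it was lost without Ctrl replicate 1 or 2, any OGD replicate, or OGD + A-485 replicate 2, with adjusted p up to 0.125. It was also lost by quantile normalization, by limma-voom, with no filter and with no trend in the prior variance (adjusted p 0.0503 to 0.0678). With A-485 it fell by 20.3% relative to Ctrl (-0.33, adjusted p = 0.00394), and this held without each library. Against OGD the A-485 change was -0.12 (interval -0.28 to 0.05, adjusted p = 0.211), and relative to the 50 nearest expressed genes it was -0.28 and passed (adjusted p = 0.0112). Kat5 shares 423 bases of its gene span with Rnaseh2c on the opposite strand, which was at 28.7 FPKM and changed by -0.39 with OGD (adjusted p = 0.0127). Rnaseh2c also changed by -0.39 for OGD + A-485 against Ctrl (adjusted p = 0.0105). With A-485 against OGD it changed by 0.01 (adjusted p = 0.968). Whether strand was used in counting is not stated, so reads of the shared stretch cannot be assigned with certainty.

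Kat8 encodes MOF, known for acetylating lysine 16 of histone H4 (ENSMUSG00000030801, chr7:127912516-127925837, plus strand). With 5.39, 5.97 and 5.02 FPKM in Ctrl, 4.95, 4.04 and 5.34 in OGD, and 4.81, 4.93 and 5.23 in OGD + A-485, it had the widest intervals of the 10, from 152 to 246 reads. The groups overlapped in all 3 comparisons. The estimates were -0.2 with OGD (interval -0.44 to 0.05, adjusted p = 0.178) and 0.07 with A-485 (interval -0.18 to 0.32, adjusted p = 0.626). Changes of up to 0.44 downwards with OGD lie within the interval. The ratio of Kat5 to Kat8 overlapped between groups in every comparison.

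Summed over the 6 writers, FPKM was 77.1 ± 2.66 (SD, n = 3) in Ctrl, 63.1 ± 1.77 in OGD and 72.0 ± 0.957 in OGD + A-485. Kat2a alone made up 41.5% of the sum in Ctrl and 37.5% in OGD, and Ep300 made up 18.3% and 20.4%. The corresponding sums of the 4 erasers were 89.8 ± 1.5, 85.4 ± 2.4 and 88.0 ± 3.13 FPKM.

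The promoters of Kat2a, Kat2b, Kat5 and Hdac2 are printed here because these were the 4 enzymes that fell with OGD. The sequences are from RefSeq (GRCm38.p6) and hold the bases upstream of the gene in windows that run from 250 bases before to 50 after a start site. Bases inside the gene were removed, which leaves 107 to 250 bases. Windows of 8 of the 10 enzymes were searched, and those of Hdac1 and Hdac3 were not used here. Capitals mark matches on either strand to ACGTG (the core of the hypoxia response element), TGACG (found in cAMP response elements) or GGGCGG (the GC box); in Kat5 ACGTG and TGACG matches overlap.
Kat2a, chr11:100712468-100712717, minus strand: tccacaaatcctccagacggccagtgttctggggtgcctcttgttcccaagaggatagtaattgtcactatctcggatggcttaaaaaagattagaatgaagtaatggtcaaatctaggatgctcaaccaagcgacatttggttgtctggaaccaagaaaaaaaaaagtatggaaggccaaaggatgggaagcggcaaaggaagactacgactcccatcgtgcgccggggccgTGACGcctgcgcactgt
Kat2b, chr17:53566721-53566860, plus strand: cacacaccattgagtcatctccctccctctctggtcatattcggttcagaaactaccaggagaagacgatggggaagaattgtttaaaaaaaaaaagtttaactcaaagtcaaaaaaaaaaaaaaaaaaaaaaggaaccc
Kat5, chr19:5610238-5610344, minus strand: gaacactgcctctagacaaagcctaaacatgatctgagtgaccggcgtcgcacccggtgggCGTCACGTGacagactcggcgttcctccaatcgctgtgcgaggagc
Hdac2, chr10:36974294-36974543, plus strand: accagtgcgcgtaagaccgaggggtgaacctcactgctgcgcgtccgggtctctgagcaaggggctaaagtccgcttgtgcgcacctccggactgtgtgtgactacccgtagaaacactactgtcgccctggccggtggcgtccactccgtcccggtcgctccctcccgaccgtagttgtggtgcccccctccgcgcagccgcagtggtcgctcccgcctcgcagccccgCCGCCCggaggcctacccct

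ACGTG was present in a window of Kat5, Kat8 and Kat2b, 3 of the 8 enzymes, and in 19.6% of all 32851 windows. TGACG was in windows of Kat2a, Kat2b, Kat5 and Kat8, against 20.8% of all windows. GGGCGG was in windows of Ep300, Crebbp, Kat5, Kat8 and Hdac2, against 35.7%. An enzyme can have more than 1 window (11 windows for 8 enzymes), which gives it more chances of a match, and the matches of Kat2b and those of Kat5 to GGGCGG and CCGGAAG lie outside the bases printed. Kat5 and Kat8 held all 3 motifs. The search also covered CCGGAAG, an ETS motif (Kat5 and Kat8, 8.86% of windows), and CGCATGCG, the core of the NRF1 motif, which was in no window of the 8 enzymes and in 1.87% of all windows.

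Hdac1 is a catalytic subunit of the Sin3, NuRD and CoREST corepressor complexes (ENSMUSG00000028800, chr4:129516104-129542713, minus strand). It was the most abundant of the 10 enzymes in each group, at 43.9, 43.8 and 45.5 FPKM in Ctrl, 44.2, 43.3 and 43.6 in OGD, and 47.0, 45.8 and 49.1 in OGD + A-485, from 1939 to 2538 reads. Ctrl and OGD overlapped, and each A-485 library was above both. The OGD change was -0.02 (interval -0.1 to 0.06, adjusted p = 0.651), so a change of more than 0.1 in either direction lies outside the interval. With A-485 Hdac1 rose by 8.16% (0.11, SE 0.04, adjusted p = 0.0275). A processed pseudogene, Gm10093, has 99.4% identity with the Hdac1 transcript over 1444 bases and was listed at a mean of 7.13 FPKM, so reads may be split between them. When its reads were added to those of Hdac1, a step chosen after the data were seen, the A-485 change was 0.1 and no longer passed (adjusted p = 0.0567). The rise also failed without OGD replicate 2 or 3 or OGD + A-485 replicate 1 or 3 (adjusted p 0.0529 to 0.0846), with library totals (0.05, adjusted p = 0.231), relative to the 50 nearest expressed genes (0.01, adjusted p = 0.866), and in limma-voom, with only the groups compared or with no trend (adjusted p 0.0518 to 0.0729), and it changed sign under quantile normalization (-0.02).

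Hdac2, the paralogue of Hdac1 in the same complexes (ENSMUSG00000019777, chr10:36974544-37001889, plus strand), was at 22.5, 22.0 and 23.1 FPKM in Ctrl, 20.9, 19.5 and 17.3 in OGD, and 23.6, 23.7 and 25.4 in OGD + A-485, from 1089 to 1674 reads. The groups did not overlap. Hdac2 fell by 14.8% with OGD (-0.23, SE 0.07, adjusted p = 0.0198), a call that was lost without Ctrl replicate 1 (adjusted p = 0.0512) or Ctrl replicate 3 (adjusted p = 0.0647). With A-485 it rose by 26.2% over OGD (0.34, adjusted p = 0.00262), and this held without each library. OGD + A-485 differed from Ctrl by 0.1 (interval -0.05 to 0.26, adjusted p = 0.213). The ratio of Hdac1 to Hdac2 was 1.95 to 1.99 in Ctrl, 2.12 to 2.52 with OGD and 1.93 to 1.99 once A-485 was added. The OGD libraries were above all others (0.21 ± 0.08 (SE) on the log2 scale against Ctrl, exact permutation p = 0.1, adjusted p = 0.25).

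Hdac3, the catalytic subunit of the NCoR corepressor complex (ENSMUSG00000024454, chr18:37935844-37954988, minus strand), changed most among the 10 enzymes. It was at 21.2, 20.1 and 20.0 FPKM in Ctrl, 20.6, 18.4 and 20.7 in OGD, and 13.2, 12.8 and 13.6 in OGD + A-485. Ctrl and OGD overlapped, and all A-485 libraries were far below both, with 779 to 816 reads against 962 to 1306. Hdac3 fell by 33.1% with A-485 (log2 fold change -0.58, interval -0.71 to -0.46, adjusted p = 3.24e-05) and by 35.0% relative to Ctrl (-0.62, adjusted p = 1.35e-05). With OGD alone the change was -0.04 (interval -0.17 to 0.08, adjusted p = 0.586). The fall was between -0.55 and -0.65 in each alternative analysis, and between -0.55 and -0.64 when 1 library was left out. In the whole table it was not extreme: 65.4% of genes tested had a smaller change with A-485 and 17.8% had a lower value.

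The 50 expressed genes nearest to Hdac3, up to 3030 kb away, had a median change of 0.07 with A-485, and 10 of them had a lower value than Hdac3. The nearby genes Fchsd1 and Diaph1 were at -0.17 and 0.0, while Arap3 was at -0.64. The lowest coordinate of Arap3 is 36.8 kb from that of Hdac3, whichever strand a gene is on. Ncor1, a corepressor that binds HDAC3, did not pass the test with A-485 (-0.03, adjusted p = 0.511). Of its partner subunits, Tbl1x fell by 0.32 (24.8 to 19.9 FPKM, adjusted p = 0.000426), Tbl1xr1 rose by 0.35 (4.25 to 5.46 FPKM, adjusted p = 0.00352), and Gps2 stood at 0.0 (adjusted p = 0.97). These 4 subunits were singled out after their values were seen.

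**Figure D3:**
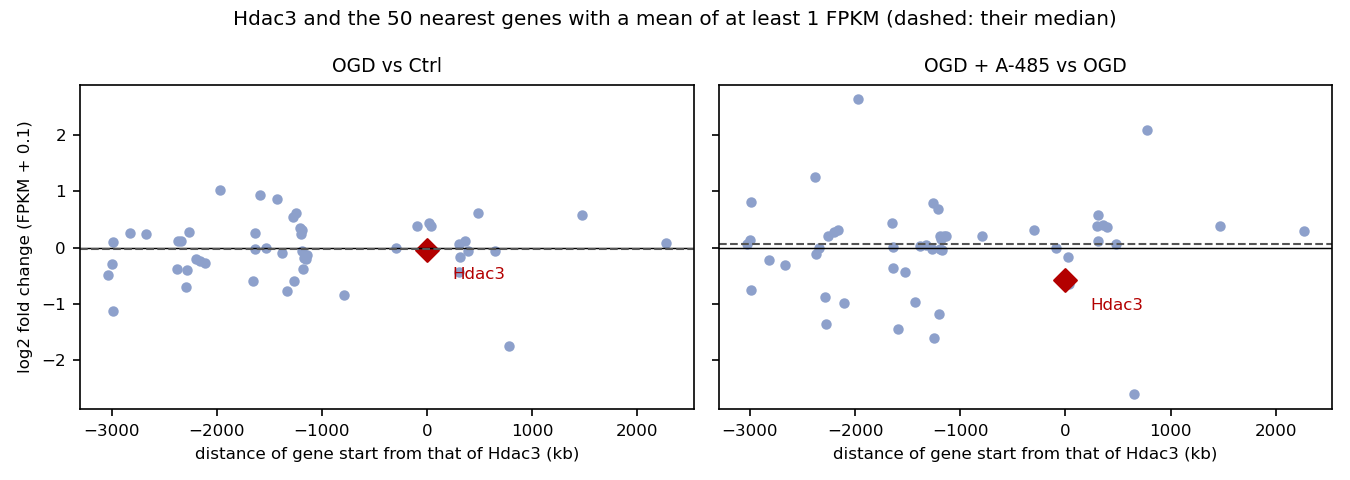
Log2 fold change (y axis) of Hdac3 (diamond) and of its 50 nearest genes averaging 1 FPKM or more (points), by the distance between gene starts in kb. A gene start here is the lowest coordinate of the gene on either strand. The dashed line is the median of the 50 genes, -0.02 with OGD and 0.07 with A-485, and Hdac3 lies at -0.04 and -0.58.

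Hdac8, a class I deacetylase that is known to act on cohesin (ENSMUSG00000067567, chrX:102284639-102505359, minus strand), was the least abundant, at 2.6, 2.32 and 2.54 FPKM in Ctrl, 2.53, 2.76 and 2.53 in OGD, and 2.98, 3.23 and 3.43 in OGD + A-485, from 156 to 247 reads. Ctrl and OGD overlapped, and the A-485 libraries were above both. The OGD change was 0.07 (interval -0.13 to 0.27, adjusted p = 0.581). With A-485 Hdac8 rose by 22.3% (0.29, adjusted p = 0.0219), a call that was lost without OGD replicate 1 or 3 or OGD + A-485 replicate 2 or 3 (adjusted p 0.0576 to 0.0787) or with library totals (0.23, adjusted p = 0.0611). Against Ctrl it rose by 28.1% (0.36, adjusted p = 0.00697), which held without each library. Hdac3 RNA was 7.89 to 8.65 times Hdac8 RNA in Ctrl, 6.65 to 8.19 times with OGD and 3.97 to 4.44 times once A-485 was added, a difference of -0.88 ± 0.11 (SE) on the log2 scale with A-485 (exact permutation p = 0.1, the smallest possible, adjusted p = 0.25). Hdac3 made up 22.7% of the summed FPKM of the 4 erasers in Ctrl, 23.3% in OGD and 15.1% in OGD + A-485, while Hdac1 went from 49.4% and 51.2% to 53.8%.

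**Figure D4:**
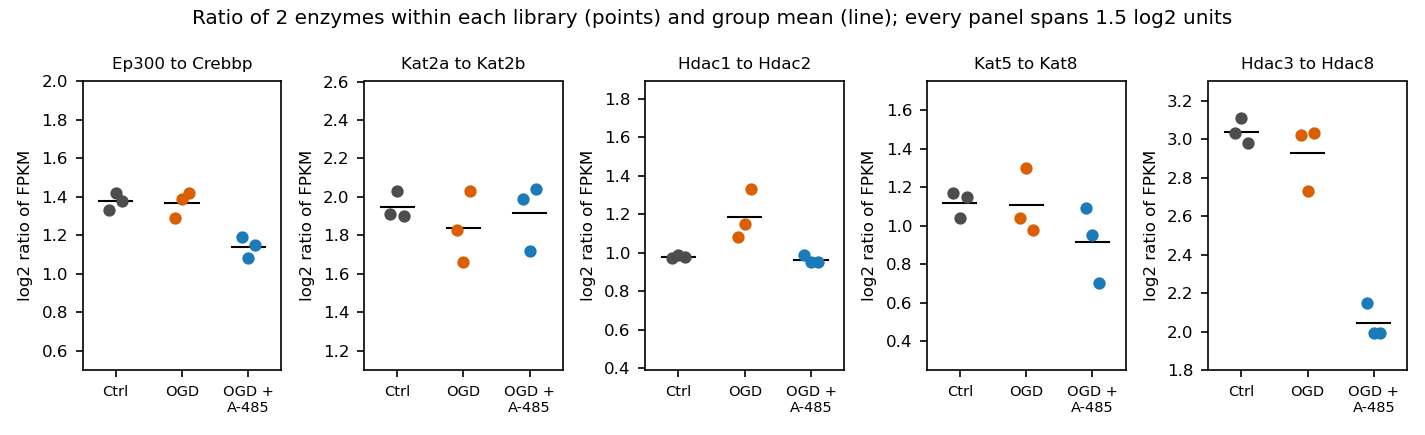
Log2 ratio of the FPKM of 2 related enzymes within each library (points), with the group mean (line), in Ctrl, OGD and OGD + A-485. Each panel spans the same range. The ratio of Hdac3 to Hdac8 has group means of 3.04, 2.93 and 2.04, and the ratio of Ep300 to Crebbp has 1.37, 1.37 and 1.14.

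Directly against Ctrl, OGD + A-485 left 1 of the 10 enzymes past the study thresholds (Hdac3), where 33.7% of all genes passed (17.0% higher and 16.6% lower). By the adjusted p, Crebbp and Hdac8 rose and Kat5 and Hdac3 fell, 4 of 10 against 56.6% of all genes (28.2% higher and 28.4% lower). The groups did not overlap for 7 of 10 enzymes, 4 higher and 3 lower, against 63.8% of all genes (31.8% higher and 32.0% lower). Ep300, Kat2a, Kat2b, Kat8, Hdac1 and Hdac2 did not pass, with estimates from -0.15 to 0.1.

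The rest of the acylation machinery was described with 150 genes in 7 lists, of which 146 were tested. Hdac11, Taf9, Dpf3 and Acss1 were below the filter. With OGD, 13 of the 146 were higher and 17 lower by the study thresholds, a total of 20.5% (21.0% of all genes). With A-485, 9 were higher and 16 lower, 17.1% (25.7% of all genes). By the adjusted p, 32 rose and 64 fell with OGD, a total of 96 of 146. Of all genes, 45.3% passed it (22.5% higher and 22.8% lower). With A-485, 40 rose and 51 fell by the adjusted p, a total of 91 of 146. Of all genes, 49.8% did (25.1% higher and 24.7% lower). Genes of similar level were not compared separately.

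Among 6 class II deacetylases tested, 3 rose and 0 fell past the study thresholds with OGD, against 21.0% of all genes. The median of the list was 0.3, where all genes had 0.014. With A-485, 0 rose and 2 fell past these thresholds, against 25.7% of all genes. By the adjusted p, 3 rose and 1 fell with OGD, against 45.3% of all genes. With A-485, 1 rose and 3 fell by the adjusted p, against 49.8% of all genes. Hdac7 is a class IIa deacetylase with little catalytic activity of its own. It rose with OGD from 1.77 ± 0.11 (SD, n = 3) to 7.99 ± 0.313 FPKM (2.12, SE 0.09, adjusted p = 7.91e-07). Hdac9 rose from 1.24 to 2.52 FPKM (0.97, adjusted p = 0.000715) and Hdac5 from 9.35 to 13.8 FPKM (0.55, adjusted p = 0.000119). With A-485 Hdac7 fell to 2.33 ± 0.226 FPKM (-1.74, adjusted p = 1e-06) and Hdac9 to 1.12 FPKM (-1.11, adjusted p = 0.000264), while Hdac5 stood at 13.4 FPKM (-0.04, adjusted p = 0.65). Hdac5 and Hdac9 were named after their values were seen.

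Of the 7 sirtuins, the NAD-dependent deacylases, 3 rose and 1 fell past the study thresholds with OGD (57.1%, against 21.0% of all genes). Sirt2, mainly a cytoplasmic deacetylase, rose from 12.4 to 20.1 FPKM (0.69, adjusted p = 1.34e-05), and Sirt1, a nuclear deacetylase, fell from 6.69 to 4.55 FPKM (-0.54, adjusted p = 0.0004). With A-485, only Sirt4, a mitochondrial sirtuin, passed the study thresholds (14.3% of the list, against 25.7% of all genes). Sirt4 fell from 5.63 to 3.24 FPKM (-0.78, adjusted p = 0.000432). By the adjusted p, 2 of the 7 sirtuins rose and 3 fell with A-485, against 49.8% of all genes.

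Of 12 other acetyltransferases, 1 rose and 1 fell past the study thresholds with OGD, against 21.0% of all genes. With A-485, 1 rose and 2 fell past these thresholds, against 25.7% of all genes. The OGD count of 2 became 4 without OGD replicate 1. By the adjusted p, 3 rose and 5 fell with OGD, against 45.3% of all genes. With A-485 the adjusted p also gave 3 higher and 5 lower, against 49.8% of all genes. Kat6b, a MYST enzyme, rose with OGD from 0.883 to 1.52 FPKM (0.72, adjusted p = 0.00175), and Kat14, a subunit of the ATAC complex, fell from 17.6 to 11.1 FPKM (-0.66, adjusted p = 3.46e-05). With A-485, Elp3, the catalytic subunit of Elongator, rose from 37.0 to 57.6 FPKM (0.63, adjusted p = 1.92e-06), and Taf1, the largest subunit of TFIID, fell from 18.3 to 11.7 FPKM (-0.64, adjusted p = 6.29e-06).

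Among 48 subunits of acetyltransferase complexes, 1 rose and 8 fell with OGD past the study thresholds (18.8%, against 21.0% of all genes). The A-485 counts were 1 higher and 3 lower (8.33%, against 25.7% of all genes). The OGD count of 9 became 5 without OGD replicate 2. By the adjusted p, 7 of the 48 rose and 22 fell with OGD, against 45.3% of all genes. With A-485, 11 rose and 17 fell by the adjusted p, against 49.8% of all genes. Usp22, the deubiquitinase of SAGA, rose with OGD from 38.2 to 62.1 FPKM (0.7, adjusted p = 3.28e-06), and Meaf6, which is shared by MYST complexes, fell from 3.3 to 1.87 FPKM (-0.79, adjusted p = 0.000152). With A-485, Kansl1, a scaffold of the NSL complex that holds MOF, rose from 7.85 to 11.2 FPKM (0.51, adjusted p = 0.000235), and Ing3, a NuA4 subunit, fell from 6.19 to 3.11 FPKM (-0.97, adjusted p = 4.86e-05).

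Among 41 subunits of deacetylase complexes, 3 rose and 2 fell with OGD past the study thresholds (12.2%, against 21.0% of all genes). The A-485 counts were 4 higher and 5 lower (22.0%, against 25.7% of all genes). The OGD count of 5 became 3 without OGD replicate 2. By the adjusted p, 9 of the 41 rose and 18 fell with OGD, against 45.3% of all genes. With A-485, 11 rose and 14 fell by the adjusted p, against 49.8% of all genes. Sin3b, a Sin3 scaffold, rose with OGD from 11.1 to 17.1 FPKM (0.62, adjusted p = 4.69e-05), and Rbbp4, a histone chaperone in several HDAC1 and HDAC2 complexes, fell from 30.7 to 20.9 FPKM (-0.55, adjusted p = 1.23e-05). With A-485, Brms1, a Sin3 subunit, rose from 14.7 to 27.6 FPKM (0.9, adjusted p = 5.6e-05), and Mta3, a NuRD subunit, fell from 12.9 to 7.6 FPKM (-0.76, adjusted p = 2.33e-05).

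Of 23 acyl-lysine readers, 2 rose and 5 fell with OGD past the study thresholds (30.4%, against 21.0% of all genes). The A-485 counts were 2 higher and 2 lower (17.4%, against 25.7% of all genes). By the adjusted p, 6 of the 23 rose and 13 fell with OGD, against 45.3% of all genes. With A-485, 9 rose and 7 fell by the adjusted p, against 49.8% of all genes. Smarca2, the BRM ATPase of SWI/SNF, was at 0.569 FPKM in Ctrl, rose to 1.04 FPKM with OGD (0.77, adjusted p = 0.000857) and to 4.15 FPKM with A-485 (1.9, adjusted p = 3.28e-06). Mllt1, the YEATS reader ENL, fell with OGD from 36.5 to 20.2 FPKM (-0.85, adjusted p = 9.86e-06). Dpf1, a BAF subunit of neurons, fell with A-485 from 2.98 to 1.84 FPKM (-0.68, adjusted p = 0.00663). Of 9 genes of acyl-CoA supply and alanyl-tRNA synthetases, 0 passed the study thresholds with OGD, against 21.0% of all genes. By the adjusted p 5 passed, against 45.3% of all genes. With A-485, Slc33a1, which carries acetyl-CoA into the endoplasmic reticulum, rose from 4.75 to 8.29 FPKM (0.79, adjusted p = 5.64e-05). Slc25a1, the mitochondrial citrate carrier, fell from 46.4 to 31.5 FPKM (-0.56, adjusted p = 8.86e-06).

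**Figure D5:**
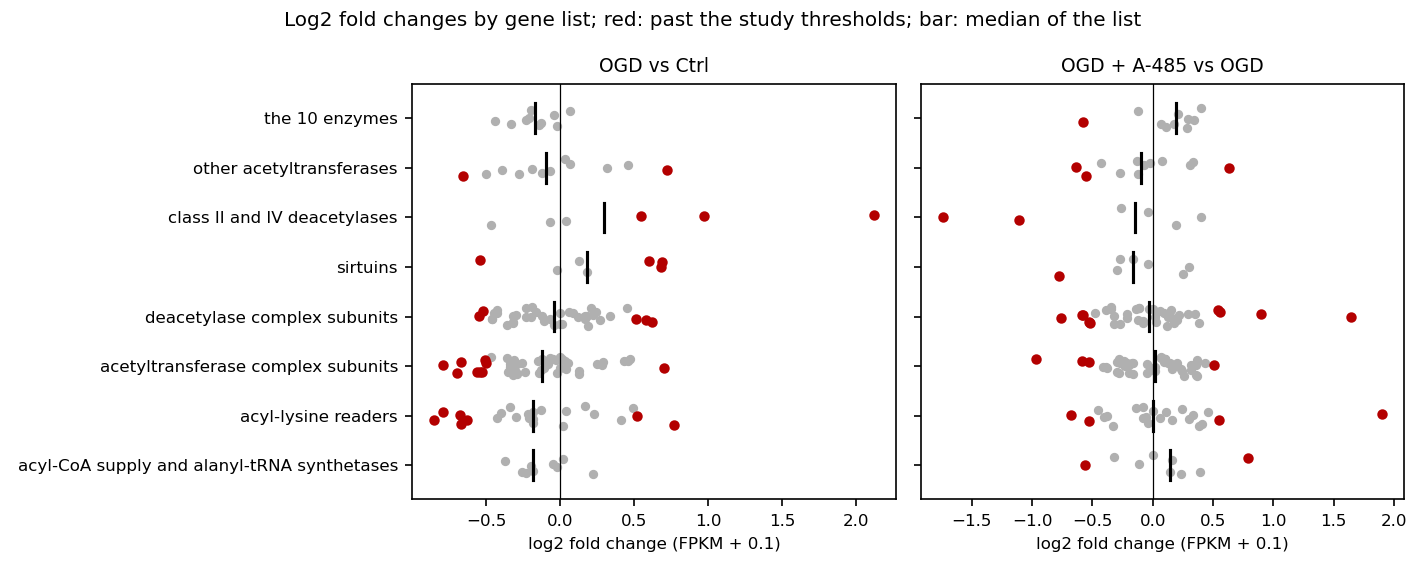
Log2 fold change (x axis) of each gene tested in the 10 enzymes and the 7 lists, with OGD and with A-485. Red points pass the study thresholds and black bars are medians. The 10 enzymes have medians of -0.17 and 0.19, and Hdac7 is the red point of the class II list at 2.12 with OGD and -1.74 with A-485.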

How the data were processed

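RNA of 9 BV2 libraries (3 groups of 3) was measured. Per the study's methods, the authors removed reads with adapters, unknown bases or low quality, counted reads per gene with featureCounts, and deposited FPKM from read count and gene length. The build was GRCm38 (mm10) per the labels. The aligner, the annotation release and whether strand was used are not given in the sources used here. All FPKM values multiplied by gene length gave whole reads (within 0.001 reads), from 12593250 to 16091038 per library, and the deposited scaling was that of median-of-ratios size factors. Of the gene IDs, 54409 were in GENCODE release M21, and 98.3% of these had the same coordinates there.

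Genes averaging 0.2 FPKM or more (16123 of 54532) were tested on log2(FPKM + 0.1) with limma 3.58.1 (R 4.3.3) over all 9 libraries, with a trended prior variance and Benjamini-Hochberg adjustment. The script was tested on simulated data. The thresholds were the study's (p below 0.01, log2 fold change beyond 0.5), and an adjusted p below 0.05. The study's own tool, DESeq2, was not run here, and the main test used the deposited FPKM values. Reads recovered from them entered limma-voom as an alternative. Ratios were compared by exact two-sided permutation tests. The labels do not say whether replicates were separate cultures, so p-values measure the spread between these samples, which may be technical.

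The 10 enzymes and the 7 lists were chosen with earlier results of these data known. Named besides the 10 enzymes were, per list and for OGD against Ctrl and OGD + A-485 against OGD, the gene past the study thresholds with the largest rise and the one with the largest fall (mean of at least 1 FPKM), and the 3 genes most like Ep300. Others are said to be chosen later. Alternatives were 2 other pseudocounts, 2 filters, 2 scalings, limma-voom on recovered reads, other fits, subtraction of 50 neighbouring genes, and leaving out each library. Some genes of the lists are not reported here by name.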

Additional observations from a re-analysis of the deposited data

How the results depend on the processing

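Hdac3 kept its fall past the study thresholds with A-485, against OGD and against Ctrl, in every alternative run. The counts of enzymes called were more fragile. The adjusted p was also used in place of the study thresholds. Enzymes called then went from 0 to 4 with OGD, 1 to 8 with A-485 and 1 to 4 for OGD + A-485 against Ctrl. In the same comparisons, the 146 list genes tested went from 30 to 96, 25 to 91 and 37 to 93 called. All genes tested went from 21.0% to 45.3%, 25.7% to 49.8% and 33.7% to 56.6% called. Leaving out a library gave 2 to 5 enzymes by the adjusted p with OGD, 4 to 8 with A-485 and 4 to 5 for OGD + A-485 against Ctrl. The 8 became 4 when libraries were scaled to their read totals and 5 with only the groups compared in the fit. Relative to 50 neighbouring genes, 2 enzymes (Hdac3 and Kat2b) passed the study thresholds with A-485. Of the list counts by the study thresholds, other acetyltransferases with OGD went from 2 to 1, and acetyltransferase complex subunits and readers with A-485 each from 4 to 2, with a pseudocount of 1. Relative to neighbours, deacetylase complex subunits with OGD went from 5 to 3, and sirtuins and readers with A-485 from 1 to 2 and from 4 to 2. The cause was not tested.

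Estimates near 0 changed sign. With OGD, Hdac1 became 0.01 by quantile normalization and 0.04 relative to neighbours, Hdac3 0.01 without OGD replicate 2 (-0.07 to 0.01 over the libraries left out), and Hdac8 -0.02 by quantile normalization. With A-485 against OGD, Kat8 became -0.04 without OGD replicate 2 (-0.04 to 0.15 over the libraries left out) and -0.11 relative to neighbours, and Hdac1 -0.02 by quantile normalization. Against Ctrl, Ep300 became -0.07 with library totals and relative to neighbours, Kat2b 0.17 relative to neighbours, Hdac1 -0.02 by quantile normalization and with library totals, and Hdac2 -0.01 with library totals. Library totals moved the median of all genes from 0.016 to -0.088 in that comparison.

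Replicate numbers did not pair the samples: deviations of same-numbered libraries correlated at -0.0463 to 0.0386 (9 pairs). With the replicate block, the enzymes called by the adjusted p were 4, 7 and 4, and only the rise of Ep300 with A-485 was lost (0.18, adjusted p = 0.0598).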

Other observations

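AARS1 and AARS2, alanyl-tRNA synthetases that have been described as lactyltransferases, are encoded by Aars and Aars2. These genes, Acly and Brd2 were chosen after their values were seen. Aars was at 29.4 ± 0.921 (SD, n = 3) FPKM in Ctrl, fell with OGD to 24.6 ± 0.656 FPKM (log2 fold change -0.26, limma adjusted p = 0.000578) and rose with A-485 to 27.5 ± 0.49 FPKM (0.16, adjusted p = 0.00692). Aars2, the mitochondrial enzyme, fell from 7.06 ± 0.494 to 5.43 ± 0.345 FPKM with OGD (-0.37, adjusted p = 0.0041) and to 4.32 ± 0.267 FPKM with A-485 (-0.32, adjusted p = 0.00813). Neither passed the study thresholds in these comparisons. For OGD + A-485 against Ctrl, Aars2 did pass them (-0.69, adjusted p = 6.69e-05), and Aars did not (-0.1, adjusted p = 0.057). Acly, which makes cytosolic acetyl-CoA from citrate, rose with OGD from 69.9 ± 1.3 to 81.6 ± 1.43 FPKM (0.22, adjusted p = 0.000456) and stood at 81.6 ± 1.36 FPKM with A-485 (0.0, adjusted p = 0.976).

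Brd2, a BET reader of acetylated histones, fell with OGD from 39.6 to 29.4 FPKM (-0.43, adjusted p = 0.00015) and rose with A-485 to 38.2 FPKM (0.38, adjusted p = 0.000261).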
